A study of Mus musculus with 46 samples.

Results

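The transcript effect of Ctu1 loss was measured in 3 RNA-seq libraries of Ctu1 iKO cells (labelled Ctu1KO) and 3 of control cells, replicates 1 to 3 of each, all treated with DMSO. These are 6 of the 46 libraries of the series and 6 of its 11 RNA-seq libraries with DMSO, and each lists the same 10420 gene entries. The libraries were chosen with measured profiles in view: Ctu1 iKO replicates 4 and 5 also carry a DMSO label, but on the difference between torin 1 and DMSO (0 for DMSO, 1 for torin 1) they lay at 0.94 and 0.83, while control replicates 4 to 6 lay between -0.22 and -0.02. Replicates 4 and 5 were therefore left out of every comparison below unless they are named, and control replicates 4 to 6 are given beside the results they touch.

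The EPP2 line was derived from pancreatic cancer of the mouse. All cells studied descend from 1 clone, in which doxycycline switches on Cas9. In the Ctu1 iKO groups, a pair of guide RNAs against Ctu1 was expressed and 300 ng/ml doxycycline was given from 4 days before the experiment. The cultures are therefore pools of edited cells and not a knockout clone. Control cells in the study carried guides against non-coding chromosome regions or received no doxycycline, and the labels do not say which applied to these libraries, so effects of doxycycline or Cas9 cutting cannot be told apart from those of Ctu1 loss here. DMSO, the solvent of the mTOR inhibitor torin 1, was given for 2 h to both genotypes. The same genotypes also received 300 nM torin 1 for 2 h, and ribosome footprints were sequenced beside RNA from each group. The methods describe repeats of the experiment on 2 days, and the labels do not show that all 3 replicates of a group were separate cultures, so p-values measure the spread between these libraries.

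Ctu1 is the catalytic subunit of the cytosolic thiouridylase, which with Ctu2 adds sulfur to the uridine at the wobble position (U34) of tRNAs for lysine, glutamate and glutamine. The sulfur carrier Urm1 supplies it, and the Elongator complex and the methyltransferase Alkbh8 with Trmt112 build the side chain on the same base. The modification helps these tRNAs read codons that end in A, and cells that lack it decode such codons more slowly. Slow decoding, shortage of amino acids, unfolded proteins and viral RNA are each known inputs to the integrated stress response, in which phosphorylation of eIF2α favours translation of the transcription factor Atf4.

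The RNA libraries held between 129881946 and 293648854 counts over the listed genes. Control totals were 158840370, 150222050 and 293648854 counts, and Ctu1 iKO totals were 129881946, 158915842 and 253491226 counts, which did not separate the groups (two-sided exact permutation test, p = 0.7, where 3 against 3 can give no p below 0.1). Levels are given as counts scaled to a library total of 1e+06 (CPM) in the order of replicates 1, 2 and 3, and a change is the log2 ratio of Ctu1 iKO to control fitted by edgeR with its standard error (SE). A gene was called at a Benjamini-Hochberg adjusted p (edgeR's quasi-likelihood test) under 0.05, and "rose" or "fell" is used only of called genes. Of 20 epithelial marker names 6 are listed, with Krt8 at 128 to 193 CPM and Krt18 at 111 to 157 CPM over the 6 libraries, whereas Epcam reached only 0.985 to 1.49 CPM and Vim, an intermediate filament of mesenchymal cells, 2370 to 3325 CPM. Cdh1 is not among the listed entries. Of 17 acinar, immune, fibroblast and endothelial marker names 5 are listed, and their summed level was 32.6 to 49.1 CPM in control and 39.6 to 57.6 CPM in Ctu1 iKO cells.

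The study's supplement gives 2 guide pairs against Ctu1, without naming the pair used in these libraries. They are shown because they set what the knockout can and cannot do to the transcript. Ctu1 lies at chr7:43672016-43678298 on the plus strand (GRCm38, GENCODE M21) with 3 exons and 1260 coding bases. Each guide had 1 match in the genome, and all 4 matches fall in the coding part of exon 2. Guides are written 5′ to 3′ in lower case with the adjacent PAM of the genome in capitals.
dsgRNA1 guide 1, minus strand, chr7:43675332-43675349: gcacgtgtgccagcactgTGG
dsgRNA1 guide 2, minus strand, chr7:43675475-43675492: gtaggccacgatggtgagCGG
dsgRNA2 guide 1, minus strand, chr7:43675314-43675332: gtggagtccttgccaccagAGG
dsgRNA2 guide 2, plus strand, chr7:43675484-43675503: gtggcctacgaagatctcttCGG

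The Ctu1 transcript count did not separate the genotypes. Ctu1 stood at 4.76, 4.54 and 4.57 CPM in control and at 4.57, 4.37 and 4.96 CPM in Ctu1 iKO libraries. The groups overlapped, with means of 4.62 ± 0.12 and 4.63 ± 0.30 CPM (SD, n = 3 each, two-sided exact permutation test, p = 0.8) and a log2 change of 0.02 ± 0.11 (SE, adjusted p = 0.926). Guides of this kind cut DNA and need not lower the count of the transcript, so the RNA level does not check the knockout. In footprints, Ctu1 averaged 2.29 ± 0.69 CPM in control and 1.69 ± 0.52 CPM in Ctu1 iKO cells (SD, n = 3 each, exact permutation test, p = 0.2). The other enzymes of U34 modification were at near-equal transcript levels: of 13 tested, edgeR called 0 and 11 changed by less than 0.15 on the log2 scale. Ctu2, the partner subunit, was at 46.1, 45.0 and 51.6 CPM in control and 52.4, 51.0 and 55.7 CPM in Ctu1 iKO (log2 change 0.17, adjusted p = 0.249). Ctu2 passed when the replicate number was a block (adjusted p = 0.0397), and with the block 1 of these enzymes was higher and 1 lower. Mocs3, which activates Urm1, is not among the listed genes.

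Across the transcriptome, 518 of 10119 genes tested differed between Ctu1 iKO and control (5.12% of genes tested). Of these, 336 rose (3.32%) and 182 fell (1.8%), with median log2 changes of 0.52 and -0.40, so most changes were of modest size. Only 54 of the risen and 3 of the fallen genes passed a 2-fold change. The strongest single call by adjusted p was Fbln2, an extracellular glycoprotein of elastic fibres, at 38.3, 39.6 and 39.02 CPM in control and 87.9, 78.8 and 90.2 CPM in Ctu1 iKO (log2 change 1.15 ± 0.07 SE, adjusted p = 0.00381). All 518 called genes had groups that did not overlap in CPM, against 14.3% of all genes tested without overlap and higher and 17.6% without overlap and lower. In the 3 same-numbered pairs the median log2 ratio was 0.44, 0.49 and 0.56 for the risen and -0.40, -0.43 and -0.45 for the fallen genes. The genes were chosen in these same libraries, so the lack of overlap and the pair ratios only describe the calls.

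The count of calls varied with the libraries kept and with how replicate number was treated. With the replicate number as a block, 2831 genes were called, 1450 higher (14.3% of genes tested) and 1381 lower (13.6%), among them all 518. DESeq2 in place of edgeR called 1530, 842 higher (8.33%) and 688 lower (6.8%), again with all 518 among them. On simulated counts of this comparison 33 of 171 DESeq2 calls were false, against 3 of 130 with edgeR. Leaving out Ctu1 iKO replicate 1 or 2 left 34 or 51 calls, and without replicate 3 there were 511, of which 371 were shared with the 518. Leaving out control replicate 1 or 3 left 79 or 131. Without control replicate 2, edgeR called 0 genes, with 1703 at an unadjusted p under 0.05. With 0 calls in that fit, none of the 79 called genes chosen by the naming rule could be called in every smaller fit. None of the 79 changed direction in any of these fits. With library totals in place of TMM factors, the share of higher among called genes was 263 of 473 in place of 336 of 518.

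**Figure D1:**
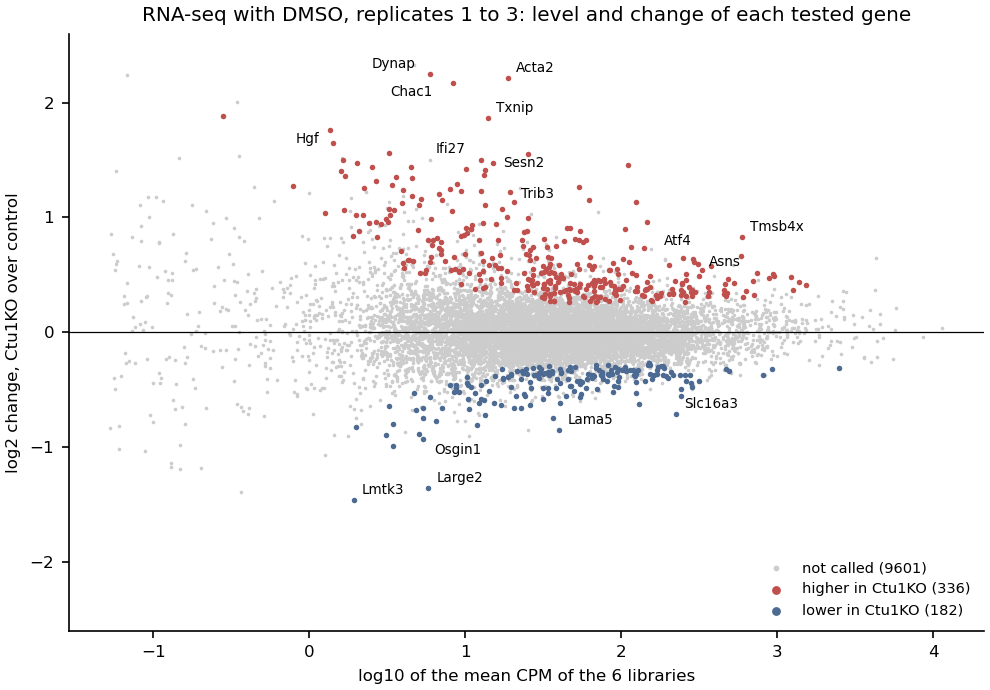
Transcript change on loss of Ctu1 against level: each point is a gene tested, with the log10 mean CPM over the 6 libraries on the x axis and the log2 change of Ctu1 iKO against control on the y axis, and genes called at an adjusted p under 0.05 (edgeR) are coloured by direction. Of the plotted called genes, 54 of the 336 risen and 2 of the 182 fallen genes pass a 2-fold change, and 1 more fallen gene, Reln, lies outside the plotted range.

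Among targets of the integrated stress response, 13 of 28 members tested rose and 0 fell (background 3.32% and 1.8%), 22 rose with the replicate block (background 14.3%), and 26 had a change above 0. For the lists that follow, the background is the same, 3.32% higher and 1.8% lower, or 14.3% and 13.6% with the block. The median log2 change was 0.44, against -0.00 over all genes tested, and it stayed between 0.39 and 0.55 under every alternative and every omitted library. The summed level of the list was 2851 to 3286 CPM in control and 3906 to 4226 CPM in Ctu1 iKO libraries.

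Atf4, the transcription factor at the centre of this response, was at 235, 223 and 231 CPM in control and 378, 343 and 337 CPM in Ctu1 iKO libraries. It rose by 0.64 ± 0.07 (SE) on the log2 scale (adjusted p = 0.00789), and its lowest Ctu1 iKO library was above the highest of all 6 control replicates, at 270 CPM. With all 11 DMSO libraries in the fit, Ctu1 iKO replicates 4 and 5 included, its log2 change was 0.37 and its call was lost (adjusted p = 0.0578). Among its known partners and targets, Ddit3 (CHOP), a transcription factor of the stress response, was at 7.06, 7.501 and 7.71 CPM in control and 17.96, 18.2 and 22.5 CPM in Ctu1 iKO (log2 change 1.41 ± 0.12, adjusted p = 0.00602). Atf5, a related transcription factor, was at 75.4, 61.7 and 43.3 CPM in control and 171, 148 and 170 CPM in Ctu1 iKO, so that the lowest Ctu1 iKO library was clear of a control group with a wide spread (log2 change 1.46 ± 0.18, adjusted p = 0.0124). The change was largest for Chac1, an enzyme that degrades glutathione, at 2.51, 2.79 and 3.87 CPM in control and 16.4, 8.72 and 15.97 CPM in Ctu1 iKO. Its replicate 2 was the lowest of the Ctu1 iKO group, and the log2 change was 2.17 ± 0.28 (adjusted p = 0.0141).

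Feedback genes of the pathway rose as well. Trib3, a pseudokinase that restrains Atf4 and Ddit3, was at 11.7, 11.6 and 12.1 CPM in control and 29.6, 23.5 and 28.7 CPM in Ctu1 iKO. Sesn2, a leucine sensor that restrains mTORC1, was at 7.59, 7.71 and 8.79 CPM in control and 24.9, 19.03 and 22.5 CPM in Ctu1 iKO. Their log2 changes were 1.23 ± 0.10 and 1.48 ± 0.12 (SE, adjusted p = 0.00602 for both), and in both genes the Ctu1 iKO values were more than 2 times the control values in every same-numbered pair. Sesn2 lost its call with all 11 DMSO libraries (adjusted p = 0.0838).

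Several called members of the list make amino acids. Asns, asparagine synthetase, was at 284, 260 and 207 CPM in control and 403, 381 and 336 CPM in Ctu1 iKO (log2 change 0.59 ± 0.12, adjusted p = 0.0349). Psat1, of serine synthesis, was at 636, 597 and 558 CPM in control and 784, 767 and 856 CPM in Ctu1 iKO (log2 change 0.44 ± 0.08, adjusted p = 0.0261). Psph, the last enzyme of the same pathway, and Cth, which makes cysteine, rose by 0.60 and 0.67 on the log2 scale, and the list's remaining called members were Stc2, Nupr1 and the amino acid transporter subunit Slc3a2 (log2 changes 0.62, 0.87 and 0.35). Stc2 lost its call with all 11 DMSO libraries (adjusted p = 0.472), and Nupr1 and Slc3a2 lost theirs when library totals alone were used for scaling (adjusted p = 0.0563 and 0.0686). Slc3a2 also lost its call with DESeq2's size factors and with 10 counts required in every library (edgeR, adjusted p = 0.0539 and 0.0546). In all 13 called members the 3 Ctu1 iKO libraries also lay above control replicates 4 to 6, which were not used in the fit, whereas the same held for 297 of the 336 risen genes (88.4%).

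**Figure D2:**
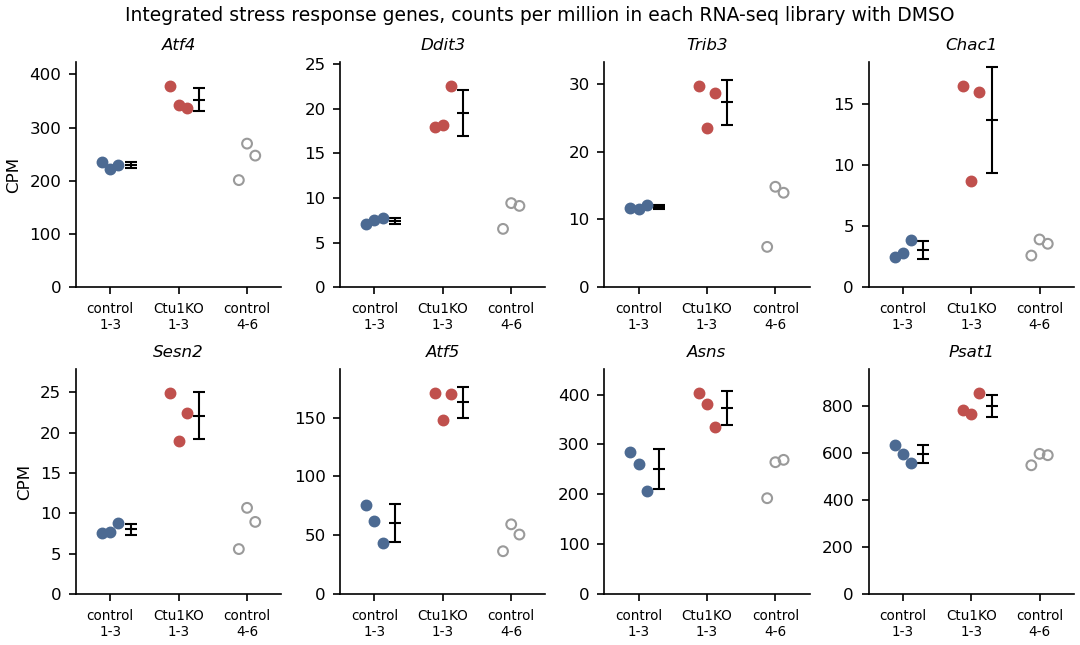
Levels of 8 integrated stress response genes by library: CPM on the y axis of each panel, control replicates 1 to 3 and Ctu1 iKO replicates 1 to 3 as filled points with mean ± SD, and control replicates 4 to 6 as hollow grey points. In each panel the Ctu1 iKO points lie above both sets of control points, as for Ddit3 with 17.96 to 22.5 CPM against 6.53 to 9.42 CPM over the 6 control replicates.

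The promoters of these genes were searched for a recognition element known from Atf4 targets. The C/EBP-ATF composite element, TGATGNAA on either strand, stood in the 250 bases before to 50 bases after the start of 211 of 8071 tested genes with a RefSeq promoter (2.61%, GRCm38.p6). Of the stress response members with a promoter it stood in 8 of 26 (30.8%), and of the called members in 4 of 12. The 4 windows follow 5′ to 3′ on the strand of the gene, with the element, or its reverse complement, in capitals. A match in letters does not show that a factor binds there.
Asns, minus strand, chr6:7693214-7693243: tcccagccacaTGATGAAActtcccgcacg
Chac1, plus strand, chr2:119351038-119351067: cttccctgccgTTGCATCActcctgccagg
Nupr1, minus strand, chr7:126625562-126625591: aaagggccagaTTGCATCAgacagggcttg
Trib3, minus strand, chr2:152344028-152344057: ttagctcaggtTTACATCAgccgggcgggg

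Of 20 cytosolic aminoacyl-tRNA synthetases, which load amino acids onto tRNAs, 5 rose and 0 fell (background 3.32% and 1.8%), and 13 rose and 1 fell with the replicate block (background 14.3% and 13.6%, list median 0.18). Nars, for asparagine, was at 1277, 1223 and 1056 CPM in control and 1632, 1654 and 1475 CPM in Ctu1 iKO (log2 change 0.44 ± 0.08, adjusted p = 0.0325). Sars, Tars, Aars and Lars rose by 0.40, 0.40, 0.34 and 0.38 on the log2 scale. Lars, at 220 to 255 CPM in Ctu1 iKO, overlapped control replicates 4 to 6, which reached 243 CPM, and the other 4 did not. With control replicates 1 to 6 in the fit, Lars, Sars and Aars lost their calls (adjusted p = 0.147, 0.0559 and 0.0541). Among 20 genes of the unfolded protein response, Herpud1, a ubiquitin-like protein of the endoplasmic reticulum that is also an Atf4 target, was the only call in edgeR, at 43.1, 44.8 and 38.3 CPM in control and 84.5, 68.5 and 62.3 CPM in Ctu1 iKO (log2 change 0.79 ± 0.11, adjusted p = 0.0174). The list median was 0.04 (-0.041 to 0.147 over the alternatives and omitted libraries, so its sign was not stable), and 4 members were higher and 1 lower with the replicate block. Of 14 p53 targets 0 were called by edgeR, with or without the block (lowest adjusted p 0.309 without it, median -0.03, from -0.063 to 0.051 over the same settings).

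Of 36 interferon-stimulated genes tested, 9 rose and 0 fell (background 3.32% and 1.8%), 26 rose with the replicate block (background 14.3%), and 35 had a change above 0. The list median of 0.72 was the largest of the 30 lists, and it moved between 0.22 and 0.82 when single libraries were left out or other settings were used. In summed level the list was at 510 to 525 CPM in control and 589 to 653 CPM in Ctu1 iKO.

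Ifi27, a membrane protein induced by interferon, was at 8.12, 6.41 and 5.56 CPM in control and 17.1, 17.6 and 21.3 CPM in Ctu1 iKO (log2 change 1.5 ± 0.15, adjusted p = 0.00789). Control replicates 4, 5 and 6 were at 8.89, 23.6 and 14.1 CPM, so replicate 5 exceeded every Ctu1 iKO library used. Ifit1, which binds viral RNA, was at 7.11, 6.46 and 6.93 CPM in control and 11.7, 11.2 and 13.3 CPM in Ctu1 iKO (log2 change 0.84 ± 0.10, adjusted p = 0.0134), while control replicates 4 to 6 reached 14.7 CPM. Ifih1 (MDA5), a sensor of double-stranded RNA, was at 7.73, 7.55 and 7.45 CPM in control and 10.5, 11.1 and 10.7 CPM in Ctu1 iKO (log2 change 0.52 ± 0.08, adjusted p = 0.0218). Control replicates 5 and 6, at 16.2 and 14.3 CPM, were above it. Eif2ak2 (PKR), a double-stranded RNA kinase that phosphorylates eIF2α and so feeds the integrated stress response, was at 15.9, 14.5 and 13.6 CPM in control and 20.1, 19.3 and 19.3 CPM in Ctu1 iKO (log2 change 0.43 ± 0.08, adjusted p = 0.0312), with control replicates 4 to 6 at 13.4, 20.3 and 18.3 CPM.

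Of the 9 called interferon genes only Ifi207 had its 3 Ctu1 iKO libraries clear of control replicates 4 to 6, compared with 88.4% of all risen genes. With control replicates 1 to 6 in the fit, the other 8 lost their calls (adjusted p from 0.0572 for Ifi204 to 0.854 for Ifih1), and Ifi203, Ifih1, Ifit1, Eif2ak2 and Xaf1 also lost them with all 11 DMSO libraries (adjusted p from 0.102 to 0.480). Ifi207 was low throughout, at 0.0884, 0.0934 and 0.171 CPM in control and 0.463, 0.366 and 0.506 CPM in Ctu1 iKO (log2 change 1.88 ± 0.37, adjusted p = 0.0371). Ifi203, Ifi204 and Ifi207 are neighbouring paralogs whose reads the counting could split, and their separate values are uncertain. Ifi203, Xaf1, Ifi204 and Ifi35 had log2 changes of 1.76, 1.56, 0.99 and 0.82. Irf7, a transcription factor of the pathway, was at 2.45, 2.92 and 4.08 CPM in control and 4.57, 4.72 and 17.03 CPM in Ctu1 iKO, which passed only with the block (adjusted p = 0.131 and 0.00678). Replicate 3 was the highest of the Ctu1 iKO group.

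**Figure D3:**
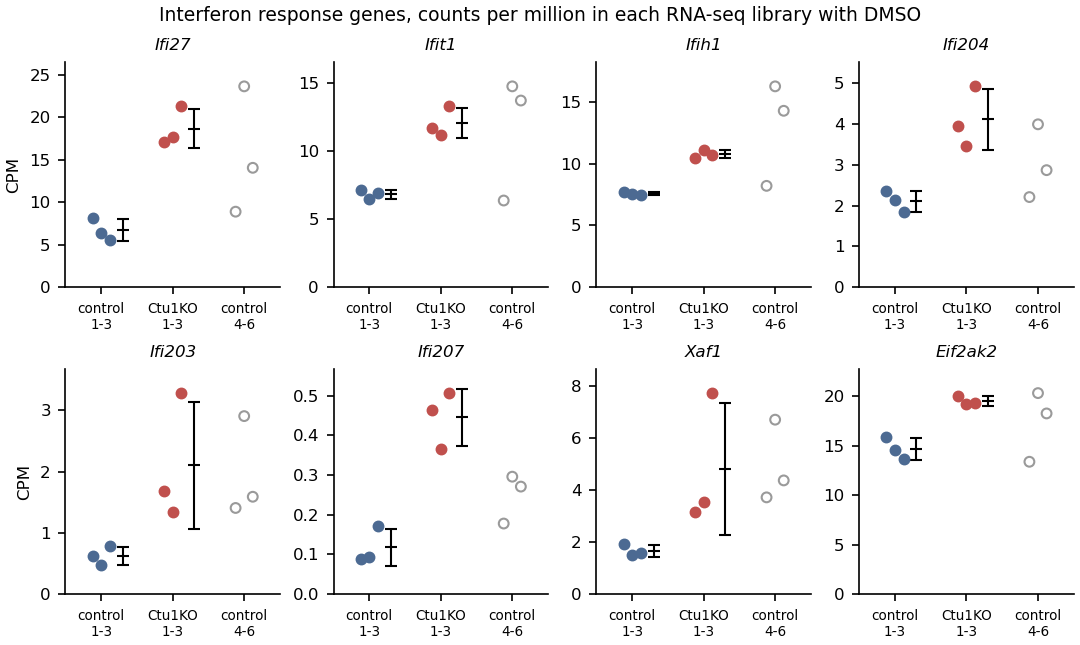
Levels of 8 interferon-stimulated genes by library: CPM on the y axis of each panel, control replicates 1 to 3 and Ctu1 iKO replicates 1 to 3 as filled points with mean ± SD, and control replicates 4 to 6 as hollow grey points. The filled groups are apart in every panel, while the hollow control points reach into or above the Ctu1 iKO range in every panel but that of Ifi207.

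The interferon-stimulated response element, searched as GAAA repeated after 2 bases of any kind, on either strand in the same windows, stood in 297 of 8071 tested genes (3.68%), in 17 of 30 list members (56.7%) and in 5 of 7 called members. The windows of 4 of these follow in the same form, 5′ to 3′ on the strand of the gene with the element or its reverse complement in capitals.
Ifit1, plus strand, chr19:34640775-34640804: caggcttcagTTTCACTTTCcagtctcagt
Ifi203, minus strand, chr1:173942508-173942537: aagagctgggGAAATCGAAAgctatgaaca
Ifi207, minus strand, chr1:173741831-173741860: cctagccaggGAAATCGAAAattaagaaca
Eif2ak2, minus strand, chr17:78882535-78882564: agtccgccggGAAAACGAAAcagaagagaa
The windows of the paralogs Ifi203 and Ifi207 hold the same 10-letter element.

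Of 29 lysosomal genes tested, 6 rose and 0 fell (background 3.32% and 1.8%), 19 rose with the block (background 14.3%), and 27 were above 0 (median 0.25). Lamp1, the main glycoprotein of the lysosomal membrane, was at 220, 227 and 219 CPM in control and 309, 295 and 298 CPM in Ctu1 iKO (log2 change 0.46 ± 0.06, adjusted p = 0.0141). Hexa, a subunit of the enzyme that degrades gangliosides, was at 10.6, 8.94 and 7.63 CPM in control and 17.7, 18.02 and 15.9 CPM in Ctu1 iKO (log2 change 0.95 ± 0.12, adjusted p = 0.0141). Atp6v0d1 and Atp6v1b2, subunits of the proton pump, rose by 0.68 and 0.36, the protease Ctsb by 0.42 and Lamp2 by 0.36 on the log2 scale. All 6 were clear of control replicates 4 to 6, but Ctsb and Lamp2 lost their calls with library totals alone (adjusted p = 0.0663 and 0.0655). They also lost them with DESeq2's size factors (edgeR, adjusted p = 0.0521 and 0.0517) and with 10 counts required in every library (0.0530 and 0.0519). The TFEB-type E-box TCACGTGA stood in 204 of 8071 promoter windows (2.53%) and in 6 of 22 lysosomal ones (27.3%), of which Atp6v0d1 was the only called gene.

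Of 25 genes of cholesterol synthesis tested, 6 fell and 0 rose (background 1.8% and 3.32%), 20 fell with the block (background 13.6%), and 24 were below 0 (median -0.28). Pmvk, phosphomevalonate kinase, was at 47.7, 45.8 and 41.7 CPM in control and 31.7, 31.6 and 32.1 CPM in Ctu1 iKO (log2 change -0.49 ± 0.07, adjusted p = 0.0174). Dhcr7, of the last steps, was at 71.4, 70.7 and 64.7 CPM in control and 51.6, 50.9 and 51.9 CPM in Ctu1 iKO (log2 change -0.40 ± 0.06, adjusted p = 0.0195). Fdft1, squalene synthase, and Hmgcs1, an early enzyme of the pathway, both fell by 0.37 on the log2 scale. All 6 called genes were clear of control replicates 4 to 6. In fatty acid synthesis 2 of 14 fell, Elovl6 (log2 change -0.43) and Fads2 (-0.37), and 7 fell with the block (median -0.18).

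Of 25 genes of glycolysis and hypoxia, 1 rose and 4 fell (background 3.32% and 1.8%), with 1 and 11 under the block (background 14.3% and 13.6%, median -0.14). Slc16a3, the lactate exporter, was at 243, 272 and 329 CPM in control and 161, 168 and 180 CPM in Ctu1 iKO (log2 change -0.71 ± 0.12, adjusted p = 0.0273). Egln3, an oxygen-sensing hydroxylase, was at 17.9, 16.9 and 15.9 CPM in control and 10.0, 10.4 and 9.80 CPM in Ctu1 iKO (log2 change -0.72 ± 0.08, adjusted p = 0.00845). The glycolytic enzymes Aldoa and Tpi1 fell by 0.31 and 0.32 on the log2 scale, whereas Ndrg1, another hypoxia gene, rose by 0.37. Of 18 NRF2 targets 4 fell and 0 rose, with 9 and 2 under the block. These were Gclc and Gclm, the subunits of the enzyme that limits glutathione synthesis (log2 changes -0.41 and -0.28), Osgin1 (-0.93) and the transketolase Tkt (-0.32), whose call was lost with all 11 DMSO libraries (adjusted p = 0.444). Of 17 heat shock proteins 4 fell and 0 rose, and 8 fell with the block. Hspd1, the mitochondrial chaperonin, was at 886, 936 and 942 CPM in control and 704, 760 and 645 CPM in Ctu1 iKO, and Hsph1, Hspb1 and Chordc1 also fell (log2 changes -0.37, -0.48, -0.66 and -0.32 in this order).

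Few cell division genes were called. Of 31 mitosis genes 1 fell, a share near the background of 1.8%, 18 fell with the block (background 13.6%), and 28 were below 0 (median -0.26, from -0.31 to -0.16 over the alternatives and omitted libraries). The call was Cenpa, the histone of centromeres, at 300, 279 and 301 CPM in control and 231, 236 and 203 CPM in Ctu1 iKO (log2 change -0.37 ± 0.08, adjusted p = 0.0400). Of 25 kinesins 2 fell and 0 rose, with 9 and 2 under the block (median -0.16, from -0.23 to -0.097). These were the mitotic motors Kif15, at 62.7, 68.5 and 67.0 CPM in control and 47.2, 45.7 and 42.3 CPM in Ctu1 iKO, and Kif11, at 59.7, 65.2 and 64.7 CPM in control and 47.4, 46.6 and 43.6 CPM in Ctu1 iKO (log2 changes -0.54 and -0.45, adjusted p = 0.0165 and 0.0204). Of 39 replication genes edgeR called 0, with a lowest adjusted p of 0.117, while 12 fell with the block (background 13.6%, median -0.11, from -0.18 to -0.030).

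Several genes of the cytoskeleton, matrix and growth factor signalling were among the largest changes. Acta2, smooth muscle actin, was at 8.66, 7.99 and 3.66 CPM in control and 36.2, 29.5 and 26.7 CPM in Ctu1 iKO (log2 change 2.21 ± 0.30, adjusted p = 0.0165). Its coding sequence is nearly that of other actins, so its count is uncertain, and its footprints, at 178, 128 and 88.9 CPM in control and 192, 152 and 175 CPM in Ctu1 iKO, did not show a comparable difference (footprint log2 change 0.36). Of 23 mesenchymal and contractile markers 3 rose and 0 fell, with 14 and 1 under the block (median 0.30, from 0.26 to 0.46), and the other two were Cnn2 and S100a4 (log2 changes 0.59 and 0.58). S100a4 lost its call with library totals alone (adjusted p = 0.0510). Inhba, the activin A subunit, was at 6.64, 5.23 and 5.09 CPM in control and 13.6, 11.8 and 13.9 CPM in Ctu1 iKO (log2 change 1.23 ± 0.13, adjusted p = 0.00789). With Pmepa1, a target and inhibitor of the pathway (log2 change 0.80), it made up the 2 calls among 20 genes of TGF-β signalling, 7 of which rose with the block (median 0.18, from 0.088 to 0.32). Among 31 matrix genes Col6a2 and Col18a1 rose (log2 changes 0.997 and 0.45) and the basement membrane subunit Lama5 fell (-0.85), with 15 higher and 4 lower under the block.

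Dcn, a proteoglycan that fibroblasts make in quantity, was at 1.10, 0.868 and 0.935 CPM in control and 2.56, 1.88 and 2.92 CPM in Ctu1 iKO (log2 change 1.36 ± 0.21, adjusted p = 0.0199). It was the 1 call among the 5 listed markers of other cell types, of which Dcn and Pdgfra were higher with the block. The fibroblast markers Pdgfra, Pdgfrb and Lum had log2 changes of 0.63, -0.06 and 0.42 and were not called without the block, with which Pdgfra passed (adjusted p = 0.00162), and Cd68, of macrophages, was at 1.54 to 2.54 CPM in all 6 libraries. Whether a change in the mix of cells has a part in the matrix and contractile changes was not tested, and in bulk RNA a change in the mix of cells and a change in RNA per cell cannot be told apart.

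Several genes outside the lists described so far also changed by more than 2-fold. Dynap was at 2.32, 1.98 and 1.99 CPM in control and 7.40, 7.47 and 14.5 CPM in Ctu1 iKO (log2 change 2.25 ± 0.28, adjusted p = 0.0140). Txnip, an arrestin-like inhibitor of glucose uptake, was at 7.41, 4.72 and 6.18 CPM in control and 24.04, 14.8 and 27.1 CPM in Ctu1 iKO (log2 change 1.87 ± 0.25, adjusted p = 0.0165). The groups stood apart in both genes, with a wide spread among Ctu1 iKO libraries. Hgf, hepatocyte growth factor, Grem1, an antagonist of BMPs, Epha3, an ephrin receptor, and Klra4 rose by 1.64, 1.55, 1.5 and 1.47 on the log2 scale, with Hgf under 3 CPM in every library. Epha3, at 1.87 to 3.24 CPM in Ctu1 iKO, overlapped control replicate 5 at 2.35 CPM and lost its call with control replicates 1 to 6 in the fit (adjusted p = 0.0700). Ghr, the growth hormone receptor, was at 34.3, 32.7 and 28.9 CPM in control and 68.4, 77.6 and 81.2 CPM in Ctu1 iKO (log2 change 1.27 ± 0.10, adjusted p = 0.00602).

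In absolute terms the largest differences were in abundant transcripts. Tmsb4x, the actin monomer binding protein thymosin β4, was at 448, 391 and 464 CPM in control and 691, 712 and 882 CPM in Ctu1 iKO (log2 change 0.83 ± 0.12, adjusted p = 0.0174). Cd44, the hyaluronan receptor, was at 1367, 1408 and 1199 CPM in control and 1868, 1810 and 1559 CPM in Ctu1 iKO (log2 change 0.42, adjusted p = 0.0437), and Emp1, Hmga2 and Myof rose by 0.48, 0.50 and 0.49. Cd44 lost its call with library totals alone (adjusted p = 0.0559). On the lower side Aldoa was at 2895, 2681 and 2740 CPM in control and 2226, 2167 and 2238 CPM in Ctu1 iKO, which did not pass with all 11 DMSO libraries (adjusted p = 0.0720), and the nucleoside transporter Slc29a1 fell by 0.33 on the log2 scale, a call that was lost with control replicates 1 to 6 in the fit (adjusted p = 0.1501).

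The 3 genes that fell by more than 2-fold were Reln, Lmtk3 and Large2, of which Reln lies outside the naming rule and was chosen after its values were seen. Reln, a large secreted matrix protein, had 20, 16 and 30 counts in control and 0, 0 and 0 in Ctu1 iKO libraries. All RNA counts were even, so a fragment may count as 2, and against a floor of 3 fragments (6 counts) over the Ctu1 iKO group it was at least 9.89-fold lower. Lmtk3, a kinase, was at 2.94, 3.003 and 2.61 CPM in control and 0.772, 1.35 and 0.934 CPM in Ctu1 iKO (log2 change -1.46 ± 0.22, adjusted p = 0.0195). Large2, a glycosyltransferase that acts on dystroglycan, was at 6.40, 8.40 and 10.3 CPM in control and 3.24, 3.96 and 2.53 CPM in Ctu1 iKO (log2 change -1.36 ± 0.23, adjusted p = 0.0245). Lipe, hormone-sensitive lipase, fell by 0.99 (not called with all 11 DMSO libraries, adjusted p = 0.0790), Ccdc18 and the nucleoporin Nup210 by 0.89, the chloride channel Clcn2 by 0.81 and the desmosomal protein Pkp3 by 0.77.

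Transcripts of the ribosome itself were not called. Of 79 cytosolic ribosomal protein genes edgeR called 0 (lowest adjusted p 0.0839) and 63 were above 0, with a median log2 change of 0.08 that ranged from 0.0068 to 0.198 over the alternatives and omitted libraries. With the block 12 were higher and 1 lower, and with all 11 DMSO libraries 22 were higher. Rps3, at 1309, 1218 and 1201 CPM in control and 1170, 1236 and 1299 CPM in Ctu1 iKO, and Rpl29, at 993, 925 and 945 CPM in control and 923, 904 and 994 CPM in Ctu1 iKO, overlapped between the groups (adjusted p = 0.950 and 0.985), and Rps25 had a log2 change of 0.16 (adjusted p = 0.308). In footprints the same list had a median of -0.10 with 16 of 79 above 0, and in translational efficiency, the footprint change relative to the transcript change, its median was -0.18 with 73 of 79 below 0, against a median of -0.00 over all genes. The 16 other TOP mRNAs, which carry a pyrimidine tract at their start that mTORC1 reads, had a transcript median of 0.07 (from 0.0088 to 0.193) with 0 called by edgeR, 2 higher and 1 lower with the block, and a footprint median of -0.23 with 0 of 16 above 0. Among 32 genes of ribosome biogenesis Rrs1 and Wdr43 fell (log2 change -0.37 for both) and 5 fell with the block. Among 78 mitochondrial ribosomal proteins Mrps21 rose (0.27, not called with library totals alone or with no count filter, edgeR, adjusted p = 0.0539 and 0.0514). With the block 4 were higher and 4 lower.

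The remaining lists held at most 1 call each: B2m of 9 genes of class I antigen presentation (log2 change 0.52), Il33 of 14 NF-κB targets and cytokines (0.94), F3 of 13 YAP targets (-0.55) and Txnip of 15 FoxO-type growth brakes. With the block these lists held 2 higher, 1 higher and 1 lower, 3 higher and 2 lower, and 4 higher and 1 lower. Il33, an alarmin cytokine, was at 2.13, 1.86 and 2.05 CPM in control and 2.86, 3.80 and 4.76 CPM in Ctu1 iKO, and control replicates 4 to 6 reached 3.49 CPM, within that range, and its call was lost with them in the fit (adjusted p = 0.0787). F3, tissue factor, was at 26.3, 25.9 and 24.2 CPM in control and 16.8, 20.2 and 14.4 CPM in Ctu1 iKO, and control replicates 4 and 5, at 19.99 and 20.03 CPM, were within that range. Its call was lost with all 11 DMSO libraries (adjusted p = 0.114). edgeR called 0 of the 6 epithelial markers, 0 of 24 genes of MAPK output and 0 of 12 mitochondrially encoded genes (lowest adjusted p 0.0559, 0.0656 and 0.381), and with the block 1 epithelial marker and 2 mitochondrial genes were higher and 6 MAPK genes lower.

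**Figure D4:**
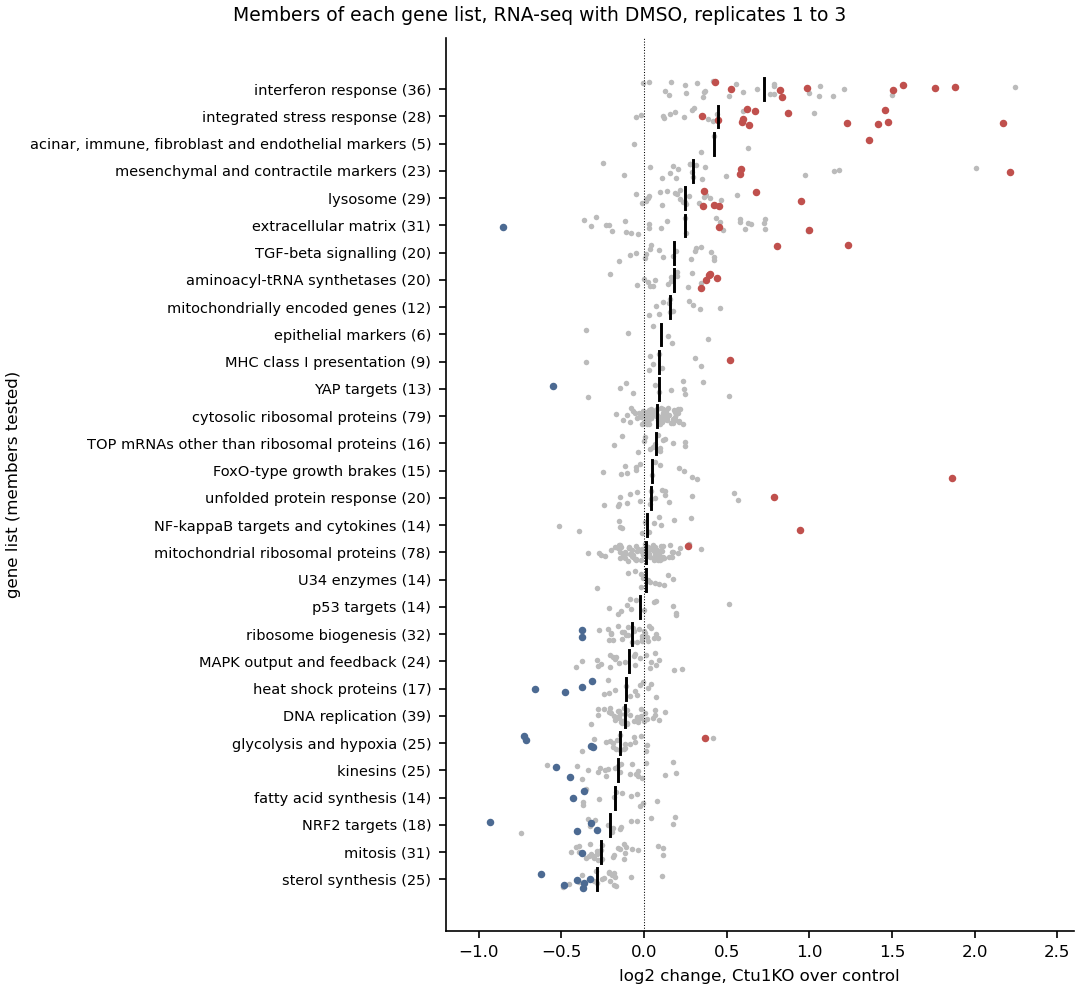
Log2 change of Ctu1 iKO against control for the members of 30 gene lists: each point is a gene on the x axis in its list's line, genes called by edgeR are coloured by direction, and the black bar is the list's median. The interferon (0.72) and integrated stress response (0.44) medians lie farthest to the right and the sterol synthesis median (-0.28) farthest to the left.

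The same genotype difference was measured in cells with torin 1, in 3 control and 3 Ctu1 iKO libraries that share no library with the DMSO comparison. Of 9616 genes listed and tested in both, 970 were called with torin 1 (10.1%), 517 higher (5.38%) and 453 lower (4.71%), when all 12 libraries shared 1 estimate of spread. From the 6 torin 1 libraries alone, 126 genes were called. Of the risen genes 315 were listed and 315 of these were also higher with torin 1, and of the fallen genes 173 of 174 were also lower, against 80.1% and 81.0% of all genes tested with a change above or below 0. With torin 1, 253 of the risen and 126 of the fallen genes were called in the same direction and 0 in the opposite one, so the shared calls were 379 of 489 and 39.1% of the 970. From the torin 1 libraries alone the shared calls were 73 of 315 and 25 of 174, all in the same direction. Atf5 was higher by 1.56, Ddit3 by 0.87, Txnip by 1.81 and Ifi27 by 2.11 on the log2 scale with torin 1 (adjusted p = 0.00121, 0.00130, 0.00174 and 0.000311). Aldoa, with -0.11, was among the genes not called there (adjusted p = 0.231).

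A difference between the genotype effects with torin 1 and with DMSO was called for 0 of 9616 genes by edgeR (140 at an unadjusted p under 0.05) and for 3 by DESeq2. These were Ifrd1, Baiap2 and Fnip2, with effects larger by 0.42, 0.38 and 0.43 on the log2 scale with torin 1 (DESeq2 adjusted p = 1.22e-05, 0.000237 and 0.0182), and they were chosen after their values were seen. Baiap2 itself had a log2 change of -0.03 with DMSO (adjusted p = 0.830).

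Ribosome footprints of the same groups, with 10828447 to 26608003 counts per library, gave far fewer calls. edgeR called 2 of 10393 genes, both higher (0.0192%), with 1030 at an unadjusted p under 0.05, and 142 were called with the block (1.37%). Ghr was at 11.8, 11.1 and 12.5 footprint CPM in control and 36.8, 37.6 and 34.5 in Ctu1 iKO (footprint log2 change 1.58, adjusted p = 0.0350). Fhl1, a LIM domain protein, was at 11.8, 11.4 and 9.63 footprint CPM in control and 33.98, 33.5 and 30.1 in Ctu1 iKO (footprint log2 change 1.53, adjusted p = 0.0462), beside a transcript change of 1.26 that passed only with the block (adjusted p = 0.0836 without and 0.000522 with it). Of the risen transcripts 312 of 336 (92.9%) were also higher in footprints and of the fallen 173 of 182 (95.1%) also lower, against 70.1% and 69.7% of all genes with a change above or below 0.

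The integrated stress response list had a footprint median of 0.63, the interferon list 0.53, the lysosome list 0.28 and the sterol list -0.27. Chac1 and Atf4 had footprint log2 changes of 2.80 and 0.99, which passed only with the block (edgeR adjusted p = 0.106 and 0.117 without and 0.0288 and 0.0199 with it). Translational efficiency was called for 0 of 10117 genes by edgeR (380 at an unadjusted p under 0.05), for 19 by DESeq2, 15 of them lower, and for 1 with the block, Acta2 (log2 change -1.88, adjusted p = 0.0235), the gene whose reads may be shared with other actins. On simulated counts edgeR recovered, for efficiency, 1 of 50 genes changed 1.5-fold and 14 of 50 changed 2-fold. For footprints it recovered 5 and 20, for the torin 1 difference 8 and 37, and for transcripts 26 and 47. Counts near 0 in these tests therefore do not show absence of change.

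**Figure D5:**
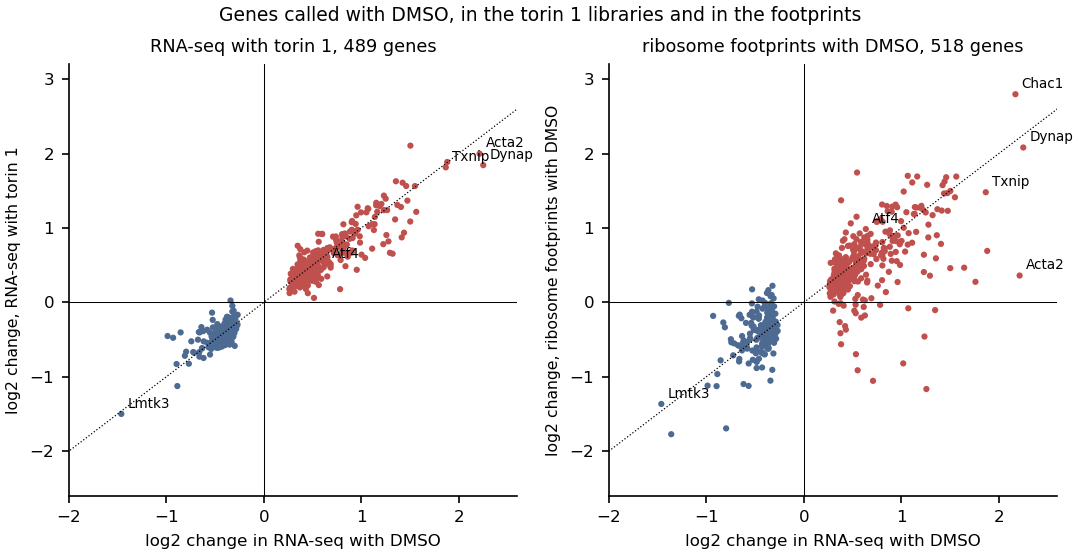
Called genes of the DMSO comparison in the other measurements: the log2 change of the transcript with DMSO on the x axis against its log2 change with torin 1 (489 genes listed there, left) and in ribosome footprints with DMSO (518 genes, right) on the y axis, with a dotted line of equal change. Most points lie in the quadrants of equal sign, with 1 exception among the genes with torin 1 and a wider scatter in footprints, and Reln lies outside the plotted range of both panels.

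Transcript changes were set beside codon content because the modified tRNAs read codons ending in A. A coding sequence (GENCODE M21) was matched to 9877 of 10119 genes (97.6%). Genes were split into 4 groups of equal size by the share of AAA among their codons. From the lowest to the highest share, the median log2 changes were -0.01, 0.00, 0.01 and -0.02, and by the share of AAA, GAA and CAA together they were -0.01, 0.01, 0.01 and -0.03. The medians of 4 groups split by GC share of the coding sequence spanned -0.04 to 0.03. From the lowest to the highest share of AAA, the groups held 91, 83, 88 and 70 risen and 65, 40, 28 and 48 fallen genes. By the share of AAA, GAA and CAA together they held 76, 95, 100 and 61 risen and 75, 32, 25 and 49 fallen genes. By GC share they held 68, 110, 94 and 60 risen and 41, 28, 37 and 75 fallen genes.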

How the data were processed

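Poly(A) RNA (TruSeq stranded, paired-end) and ribosome footprints were sequenced. The authors deposited raw counts per gene, made with cutadapt 3.4 and STAR per the labels (mm10 or GRCm38) and, for footprints, UMI-tools 1.1.1 and STAR 2.5.3a, with no normalization. All RNA counts were even, so a fragment may count as 2, and counts divided by 2 were an alternative. Entries reach at least 100 footprint counts in some DMSO library, so genes below that were not tested. Symbols on more than 1 entry (11 symbols, 23 entries) were left out, as were genes with a mean under 10 counts, leaving 10119. Tests used edgeR 4.0.16 in R 4.3.3 (TMM, quasi-likelihood, Benjamini-Hochberg), DESeq2 1.42.0 as an alternative, Python 3.11.15 with pandas 2.3.3, numpy 2.4.6 and matplotlib 3.10.9, and were tested on simulated data. Effects with torin 1 come from a model of the 12 RNA libraries. Deviations of same-numbered RNA libraries from their group means correlated (r = 0.58, 0.48 and 0.64 across genes, footprints 0.33, 0.24 and 0.43), so the numbers were taken to pair them, and the replicate block is given for the gene lists and where it changes the call of a gene. In RNA, Ctu1 iKO replicate 1 also correlated with control replicate 2 (r = 0.49). Replicate 3 of either genotype correlated negatively with replicates 1 and 2 of the other, so the pattern includes a split of replicate 3 from the others. The comparison, gene lists and naming rule were chosen with earlier results of these data known. Named genes were U34 enzymes, Rpl29, Rps25, Rps3, the 12 largest called changes per direction and the 6 largest CPM differences (mean of at least 100 counts, no overlap), up to 4 called members per list with the lowest adjusted p, and others where the text says so or completes a list's calls. Some genes that the naming rule selects are not reported here.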

Additional observations from a re-analysis of the deposited data

How the results depend on the processing

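Each library was left out in turn, and DESeq2, other scalings, filters and library sets were tried. In place of 518 transcript calls, DESeq2 gave 1530 (518 shared), all 11 DMSO libraries 2677 (464 shared) and control replicates 1 to 6 1530 (456 shared). A batch term that set replicate 3 apart from replicates 1 and 2 gave 2618. The replicate block gave 2831, replicates 1 and 2 alone 1547 (517 shared) and omission of 1 library 0 to 511. DESeq2's size factors, library totals, 3 other filters and counts divided by 2 gave 473 to 521. Footprint calls (2) became 170 with DESeq2, 277 with all DMSO libraries, 142 with the block, 0 with replicates 1 and 2 alone (edgeR, 1067 at an unadjusted p under 0.05, an alternative chosen after seeing the data) and 0 to 0 with 1 library omitted. Translational efficiency calls (0) became 19 with DESeq2 and 1 with the block, and differences between torin 1 and DMSO 3 with DESeq2 and 0 with the block. The 970 calls with torin 1 became 126 from those libraries alone (chosen after seeing the data) and 3453 with the block. Of 79 called genes named by rule, 59 were called in all settings that kept replicates 1 and 2 of both groups. None could be called in every fit that omitted a library, since the fit without control replicate 2 called 0 genes. Directions turned only for 10 uncalled genes near 0. Log2 changes became -0.16 for Ctu1, -0.0064 for Elp5, 0.031 for Nfs1, 0.15 for Rpl29 and 0.13 for Trmt112 with all DMSO libraries. With control replicates 1 to 6 they became -0.030 for Elp5, 0.00099 for Kti12, 0.011 for Nfs1, 0.066 for Rpl29 and 0.028 for Trmt112. With replicates 1 and 2 alone they became -0.035 for Ctu1, 0.0057 for Elp2, -0.026 for Elp6 and -0.047 for Rps3, which was at -0.0082 with library totals. With 1 library omitted the ranges were -0.039 to 0.053 for Ctu1, -0.075 to 0.040 for Dph3, -0.065 to 0.028 for Elp2, -0.016 to 0.099 for Elp6, -0.077 to 0.035 for Kti12, -0.044 to 0.0026 for Nfs1, -0.052 to 0.020 for Rpl29 and -0.035 to 0.058 for Rps3. Of 30 list medians 21 kept their sign in every setting. The others were those of U34 enzymes, mitochondrial ribosomal proteins, ribosome biogenesis, the unfolded protein response, p53 targets, FoxO-type growth brakes, NF-κB targets, epithelial markers and mitochondrially encoded genes, and the last of these ranged from -0.38 to 0.41. The causes were not tested.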

Other observations

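Some called genes fell into families that were looked up only after their values were seen. The counts are therefore descriptions, and high shares among them follow from that choice. Over all genes tested 3.32% rose and 1.8% fell, or 14.3% and 13.6% with the replicate block. Immunity-related GTPases, large interferon-induced GTPases of cell-autonomous defence, had 7 members tested, of which Irgm1, Irgm2, Igtp and Ifi47 rose (edgeR, adjusted p under 0.05) and 5 with the replicate block, with a family median log2 change of 1.11. Irgm1 was at 5.74, 5.75 and 4.23 CPM in control and 13.1, 10.9 and 13.9 CPM in Ctu1 iKO (log2 change 1.29 ± 0.15 SE, edgeR's quasi-likelihood test, adjusted p = 0.00978), while control replicates 4 to 6 ranged from 5.08 to 12.9 CPM. None of the 4 was clear of those replicates, and with them in the fit Irgm1, Irgm2 and Igtp lost their calls (adjusted p = 0.0789, 0.222 and 0.728).

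Proteins of caveolae, small pits of the plasma membrane, and annexins, which bind membranes with calcium, were also among the risen genes. Of 6 caveolar genes Cav1, Cavin2 and Cavin4 rose, and 5 with the replicate block. Cav1, the main coat protein, was at 87.9, 81.3 and 67.3 CPM in control and 168, 152 and 193 CPM in Ctu1 iKO (log2 change 1.14 ± 0.12 SE, edgeR's quasi-likelihood test, adjusted p = 0.00789), and all 3 risen genes were clear of control replicates 4 to 6. Of 9 annexins Anxa3, Anxa4, Anxa5 and Anxa7 rose, and 6 with the block, among them Anxa8 (log2 change 2.33, adjusted p = 0.0626 and 0.000228 with the block), with Anxa3 at a log2 change of 0.74. All 4 were clear as well, although Anxa4 lost its call with control replicates 4 to 6 in the fit (adjusted p = 0.0556) and with library totals alone (0.0638). Anxa4 also lost its call with DESeq2's size factors and with 10 counts required in every library (edgeR, adjusted p = 0.0518 and 0.0525). Of 6 galectin genes, Lgals3bp included, 5 rose (6 with the block), and of the 5, Lgals1, Lgals3 and Lgals8 were clear, although Lgals1 lost its call with library totals alone (adjusted p = 0.0543), while Lgals9 and Lgals3bp overlapped control replicates 4 to 6 and lost their calls with them in the fit (adjusted p = 0.117 and 0.220). Of 4 proteasome activator subunits Psme1 and Psme2 rose (log2 changes 0.30 and 0.47) and Psme4 fell (-0.33), with the same counts under the block. Psme4 was clear of control replicates 4 to 6, and Psme1 and Psme2 overlapped them and lost their calls with them in the fit (adjusted p = 0.432 and 0.0532).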
